A study of Mus musculus with 8 samples.

Results

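Mouse embryonic stem cells that lack all TCF/LEF transcription factors (QKO) were compared with wild-type cells (WT) across every expressed gene. The libraries were chosen by their titles: WT replicates 1 and 2 and QKO replicates 1 and 2, which are 4 of the 8 RNA-seq libraries in the series. The other 4 come from lines titled QT7 and QT7L1 and were used only to estimate the spread of each gene; by their genotype labels QT7 keeps 1 allele of TCF7L1 and QT7L1 keeps 1 allele of TCF7, the reverse of what the titles name. All cells are of the E14TG2a line, which is of 129/Ola origin, and had been kept for 48 h in medium with 15% serum and LIF. The QKO genotype is TCF7(-/-), TCF7L1(-/-), TCF7L2(-/-), LEF1(-/-), so that both QKO libraries carry all of the deletions and no library isolates one of them. The labels name the QKO replicates as clones A and B and the WT replicates as biological replicates without a clone. A QKO library is therefore 1 clone, and differences between clones cannot be told apart from other differences between the libraries. For WT nothing else in the labels says that the replicates came from separate cultures, so p-values measure the spread between these samples, which in WT may be technical.

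TCF/LEF proteins bind DNA and recruit beta-catenin, the effector of the canonical Wnt pathway, to the genes that the pathway controls. When beta-catenin is absent, the same proteins hold Groucho/TLE corepressors at those genes. In embryonic stem cells TCF7L1 is known mainly as a repressor that holds down pluripotency genes, and TCF7 and LEF1 are known mainly as partners of beta-catenin. Cells without any member have thus lost both the repressors and the DNA anchors for beta-catenin.

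Of 47729 gene identifiers, 24518 had at least 1 count in a WT or QKO library, and 16515 passed the filter on low counts and were tested. The libraries held 31573536 and 43362627 counts in WT and 33576701 and 37794476 in QKO. Levels are given as CPM, counts scaled to library size with TMM factors, which can be compared between libraries for 1 gene but not between genes of different length. The correlation of log2 CPM across genes was 0.9901 between the WT libraries and 0.9903 between the QKO libraries, and 0.9654 to 0.9727 between a WT and a QKO library. Mitochondrial genes held 0.44 to 0.82% of the counts. The lincRNA Gm42418 held 0.166 and 0.159% in WT and 0.09 and 0.067% in QKO, a fall by the test (-0.96 ± 0.24), and its part in the results was not tested. Gm42418 (0.099) was not called without WT replicate 1, where the value in brackets is the adjusted p. Gm42418 (0.12) was not called without WT replicate 2. Gm42418 (0.147) was not called without QKO replicate 2. Of the deleted genes, Tcf7 stood at 59.6 and 61.9 CPM in WT and 7.97 and 19.6 CPM in QKO. Tcf7l1 stood at 73.6 and 68.8 CPM in WT and 38.3 and 39.1 CPM in QKO, and Lef1 at 6.57 and 2.4 CPM in WT and 0.9 and 0.804 CPM in QKO. Tcf7l2 stood at 8.14 and 6.53 CPM in WT and 7.32 and 7.4 CPM in QKO, so its libraries overlap. Counts over a whole gene do not show whether a full-length transcript remains. Tcf7 (0.0549) was not called when the WT and QKO libraries were fitted alone, where the value in brackets is the adjusted p. Lef1 (0.0599) was not called without QKO replicate 2.

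A gene was called when edgeR's quasi-likelihood test gave a Benjamini-Hochberg adjusted p under 0.05. On this rule 4366 of 16515 genes (26.4%) differed between QKO and WT, of which 1933 (11.7%) were higher and 2433 (14.7%) lower in QKO. Calls of at least 2-fold were 419 higher (2.54%) and 1315 lower (7.96%). In 11463 genes (69.4%) both QKO libraries lay above, or both lay below, both WT libraries. With 2 libraries a group, such a separation also arises often without a difference between the groups. The calls themselves were spread over a large share of the expressed genes, and the large folds were mostly falls. The number of calls depended on single libraries: it was 3076 or 1310 when WT replicate 1 or 2 was left out and 2188 or 1336 when QKO replicate 1 or 2 was left out. The remaining library of a group is then assumed to vary like the other groups. Scaling by library total alone moved the median log2 fold change of all genes to -0.09 and gave 1298 higher and 2906 lower, so that 30.9% of the calls were higher against 44.3% with TMM.

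**Figure D1:**
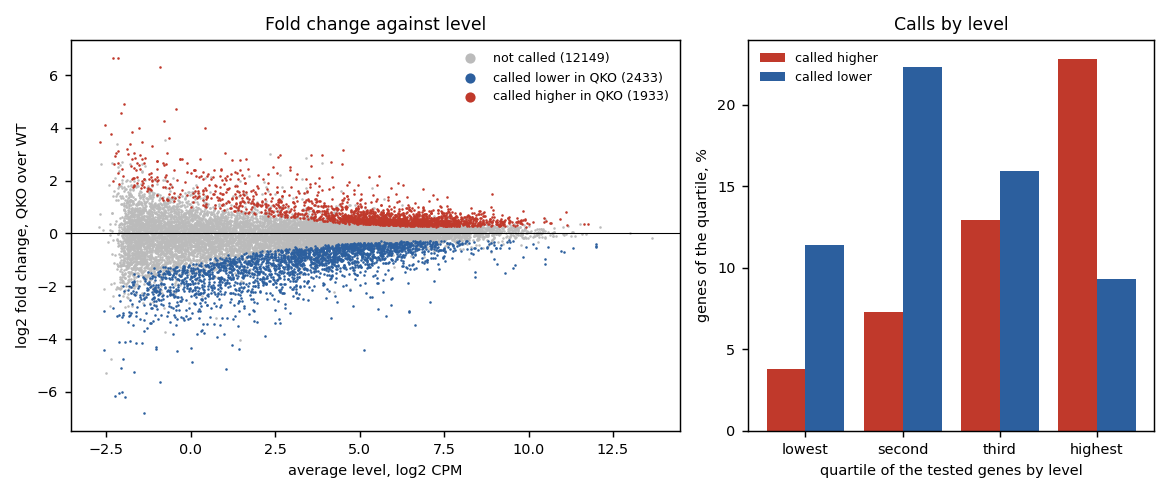
Left, log2 fold change of QKO over WT (y) against the average level in log2 CPM (x), with each point a tested gene coloured by its call; right, the share of genes called higher or lower (y, %) in each quartile of the tested genes by level (x). In the quartile with the highest levels 22.8% of genes were called higher and 9.3% lower, and in the second quartile 7.3% were higher and 22.3% lower.

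Rises and falls differed in where they lay on the range of expression. Among the quartile of genes with the highest levels, 943 of 4129 rose and 385 fell, whereas in the second quartile from the bottom 301 rose and 921 fell. Genes called lower changed by a median of 2.1-fold and genes called higher by a median of 1.48-fold. Of the rises, 39.7% were under 1.41-fold, against 11.7% of the falls. Within a quartile of level, the medians of rises and falls lay close together: 1.37-fold and 1.46-fold in the top quartile, 1.49-fold and 1.69-fold in the third, 2.17-fold and 2.31-fold in the second, and 4.16-fold and 4.08-fold in the lowest. The standard error of the log2 fold change had a median of 0.11 in the top quartile and 0.51 in the lowest, so a small change could be called only in abundant genes. In the WT libraries the genes called lower held 11.5 and 12.8% of all counts, and in the QKO libraries 7.3 and 7.2%. The genes called higher held 20.9 and 19.5% in WT and 26.6 and 27.2% in QKO. By annotated type, 12.8% of 14174 protein-coding genes were called higher and 16.5% lower, against 4.0 and 1.0% of 1164 processed pseudogenes and 7.8 and 9.4% of 320 lincRNAs.

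The largest falls among genes of at least moderate level (average log2 CPM of 2 or more) included several genes known for induction by low oxygen. A value with ± is a log2 fold change of QKO over WT with its standard error throughout. Ndufa4l2, a mitochondrial protein of that response, stood at 30.9 and 43.4 CPM in WT and 1.71 and 1.77 CPM in QKO (log2 fold change -4.42 ± 0.45, SE, n = 2 libraries a group, adjusted p = 0.00153). Bnip3, a receptor that marks mitochondria for removal by autophagy, stood at 121 and 141 CPM in WT and 13.9 and 9.67 CPM in QKO (-3.48 ± 0.38, adjusted p = 0.00247). Egln3, a prolyl hydroxylase that senses oxygen, stood at 56.2 and 82.8 CPM in WT and 8.5 and 7.15 CPM in QKO (-3.15 ± 0.35, adjusted p = 0.0019). In all 3 genes both QKO libraries lay several-fold under both WT libraries. Bhlhe40, a transcriptional repressor of the circadian and oxygen responses, stood at 82 and 131 CPM in WT and 13.2 and 14.8 CPM in QKO (-2.93 ± 0.23). Ddit4, an inhibitor of mTORC1, stood at 136 and 189.6 CPM in WT and 30.2 and 23.2 CPM in QKO (-2.61 ± 0.34). Other large falls were in genes known for other roles. Grin1, the subunit that every NMDA-type glutamate receptor needs, stood at 8.95 and 6.96 CPM in WT and 1.09 and 0.416 CPM in QKO (-3.42 ± 0.36). Frem2, a basement membrane protein, stood at 34.1 and 45.7 CPM in WT and 4 and 4.68 CPM in QKO (-3.20 ± 0.26). Kif1a, a kinesin of axonal transport, stood at 18 and 16.4 CPM in WT and 4.13 and 2.13 CPM in QKO (-2.46 ± 0.29). Sema3e and its receptor Plxnd1 fell together, with log2 fold changes of -2.51 ± 0.29 and -2.49 ± 0.35. Ccng2, an atypical cyclin, fell by 2.76 ± 0.22, and Lefty1, a secreted inhibitor of Nodal, by 2.71 ± 0.16, both on the log2 scale. The remaining members of this set were Got1l1 (-3.41 ± 0.38), Hapln4 (-3.23 ± 0.47), Vldlr (-2.83 ± 0.44), Ppp1r3b (-2.69 ± 0.36), Atp6v0a4 (-2.56 ± 0.37), Snx25 (-2.52 ± 0.31) and Miip (-2.50 ± 0.31). The 25 largest falls, taken with non-overlapping libraries and without predicted or clone names, also held Dppa3 (-3.89 ± 0.67), Pygl (-3.04 ± 0.50), Pgm1 (-2.98 ± 0.46), Coro2a (-2.90 ± 0.53), Klhl13 (-2.86 ± 0.42) and Krt19 (-2.62 ± 0.56), whose calls depended on single libraries. Krt19 (0.0631) was not called without WT replicate 1, where the value in brackets is the adjusted p. Pgm1 (0.0553) and Krt19 (0.0583) were not called without WT replicate 2. Dppa3 (0.0543), Coro2a (0.0532) and Krt19 (0.109) were not called without QKO replicate 1. Dppa3 (0.0529), Pygl (0.0501), Pgm1 (0.0676), Coro2a (0.0511), Klhl13 (0.0588) and Krt19 (0.116) were not called without QKO replicate 2. Atp6v0a4 overlaps another called gene on its own strand (D630045J12Rik). Got1l1, Ppp1r3b and Snx25 lie in a stretch of chromosome 8 that was low as a whole, described with the chromosomes.

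The promoters of 3 of these genes are shown because they carry ACGTG, the core to which the oxygen-regulated HIF factors bind, and that of Hal, one of the largest rises, because it carries CTTTGAT, a core to which TCF/LEF factors bind. Each run is the 250 bases before the annotated start, 5′ to 3′ on the strand of the gene, from RefSeq on GRCm38.p6, with the matches on either strand in capitals. Bnip3 is at chr7:138909507-138909756 on the minus strand, Grin1 at chr2:25319188-25319437 on the minus strand, Egln3 at chr12:54203875-54204124 on the minus strand and Hal at chr10:93488518-93488767 on the plus strand.
Bnip3: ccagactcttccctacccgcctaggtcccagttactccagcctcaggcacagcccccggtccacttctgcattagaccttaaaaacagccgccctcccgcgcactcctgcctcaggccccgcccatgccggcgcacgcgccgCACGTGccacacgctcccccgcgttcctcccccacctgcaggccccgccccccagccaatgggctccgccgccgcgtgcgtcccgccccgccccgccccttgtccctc
Grin1: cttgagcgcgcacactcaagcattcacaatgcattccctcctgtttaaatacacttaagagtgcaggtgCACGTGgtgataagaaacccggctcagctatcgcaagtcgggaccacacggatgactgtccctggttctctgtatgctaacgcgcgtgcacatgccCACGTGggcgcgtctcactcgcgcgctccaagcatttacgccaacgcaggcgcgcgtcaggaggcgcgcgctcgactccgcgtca
Egln3: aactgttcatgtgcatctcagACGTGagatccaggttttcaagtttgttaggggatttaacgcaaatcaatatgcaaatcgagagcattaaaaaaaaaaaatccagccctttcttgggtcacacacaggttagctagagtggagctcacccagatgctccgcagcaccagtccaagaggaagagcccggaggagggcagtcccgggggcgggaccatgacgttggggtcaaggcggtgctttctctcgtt
Hal: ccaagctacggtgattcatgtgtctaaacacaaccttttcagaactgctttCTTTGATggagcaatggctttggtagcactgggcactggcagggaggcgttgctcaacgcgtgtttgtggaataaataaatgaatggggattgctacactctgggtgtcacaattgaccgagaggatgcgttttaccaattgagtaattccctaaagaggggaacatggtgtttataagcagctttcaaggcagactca
In Bnip3 and at 2 places in Grin1 the letters CACGTG hold ACGTG on both strands, while Egln3 and Hal hold a single match each. These letters are common: in windows of 250 bases before to 50 bases after the start, ACGTG occurred in 28.7% and CTTTGAT in 3.0% of 11207 tested protein-coding genes with a RefSeq promoter. Among genes called higher the shares were 30.6 and 3.5% of 1439 genes. Of the genes called lower, 1815 of 2270 had a promoter, which is under the 80% set for this comparison, so it is void for them. It is void as well for the largest falls and rises, of which 17 and 18 of 25 had a promoter. ACGTG was held by 8 of 17 promoters of the largest falls and 3 of 18 of the largest rises (Klk10, Zp3 and Foxd3). CTTTGAT was held by 0 of 17 and 2 of 18. With promoters missing for many of these genes, these counts cannot show whether there is a pattern of direction. The promoters shown are a choice. A match is a run of letters and no evidence of binding.

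The largest rises were smaller than the largest falls, and their leading genes are known for different roles. Nt5e (CD73), an enzyme of the cell surface that makes adenosine, stood at 5.98 and 3.76 CPM in WT and 48.3 and 37.8 CPM in QKO (log2 fold change 3.15 ± 0.29, adjusted p = 0.000617). Hal, which degrades histidine, stood at 0.97 and 1.9 CPM in WT and 13.2 and 9.73 CPM in QKO (2.97 ± 0.32, adjusted p = 0.000685). Lrrn2, a leucine-rich repeat membrane protein, stood at 2.88 and 2.25 CPM in WT and 22.6 and 17 CPM in QKO (2.96 ± 0.27, adjusted p = 0.000462). In all 3 both QKO libraries lay above both WT libraries, which stood at 5.98 CPM or less. Id3, an inhibitor of basic helix-loop-helix factors, stood at 20.4 and 14.3 CPM in WT and 75 and 78.8 CPM in QKO (2.15 ± 0.16, adjusted p = 0.000328). Soga3 stood at 26.5 and 18.7 CPM in WT and 90.4 and 116 CPM in QKO (2.19 ± 0.19). Its neighbour on chromosome 10, 9330159F19Rik, stood at 5.95 and 3.76 CPM in WT and 38.3 and 38.1 CPM in QKO (2.98 ± 0.23), and both it and Id3 had the smallest adjusted p among the rises. On the log2 scale, Cd74, the invariant chain of MHC class II, rose by 2.52 ± 0.30 and Gsta3, a glutathione transferase, by 2.42 ± 0.30. Calcoco2, a receptor of selective autophagy, rose by 2.09 ± 0.32, Klk10, a kallikrein protease, by 2.06 ± 0.36, and Zp3, an egg coat protein, by 1.91 ± 0.27. Lpar1, a receptor for lysophosphatidic acid, rose by 1.87 ± 0.21. Arhgef26 (2.27 ± 0.24), Slc4a5 (1.96 ± 0.21), Sall3 (1.91 ± 0.26), Exoc3l (1.83 ± 0.18) and Fam169b (1.77 ± 0.20) also rose, as did Foxd3 and Pou2f3, described with the transcription factors. Each of the genes named up to here among the rises kept its call under every alternative tried. Klk10 overlaps 2310002F09Rik, which is on the opposite strand and was called lower. The 25 largest rises by the same rule also held Ptgs1 (2.69 ± 0.45), Arl14epl (2.64 ± 0.64), Serpinb9b (2.30 ± 0.44), Zfp600 (2.13 ± 0.53), Pou4f2 (1.79 ± 0.43) and Ddx58 (1.90 ± 0.33). Arl14epl (0.141) and Zfp600 (0.107) were not called without WT replicate 1, where the value in brackets is the adjusted p. Ptgs1 (0.0733), Arl14epl (0.196), Serpinb9b (0.0733), Zfp600 (0.199) and Pou4f2 (0.142) were not called without WT replicate 2. Arl14epl (0.098) and Zfp600 (0.0929) were not called without QKO replicate 1. Arl14epl (0.104), Serpinb9b (0.0524), Zfp600 (0.125), Pou4f2 (0.112) and Ddx58 (0.0549) were not called without QKO replicate 2.

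**Figure D2:**
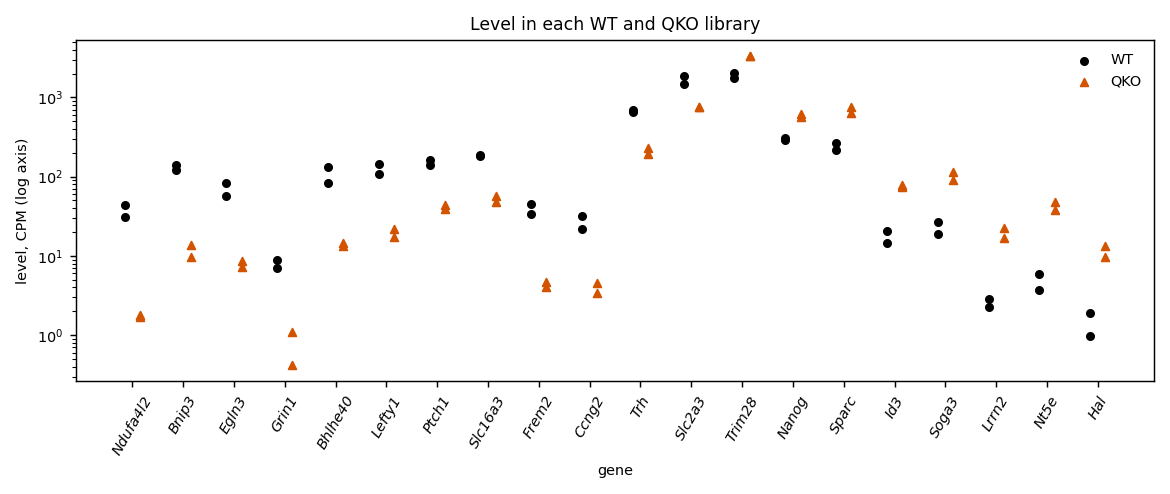
Level in CPM on a log axis (y) of 20 genes (x), with WT libraries as circles and QKO libraries as triangles, 2 of each per gene. In every gene shown both QKO libraries lie on 1 side of both WT libraries, from Ndufa4l2 (30.9 and 43.4 CPM in WT and 1.71 and 1.77 CPM in QKO) to Nt5e (5.98 and 3.76 CPM in WT and 48.3 and 37.8 CPM in QKO).

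The differences with the smallest adjusted p were not those with the largest fold. Lefty1 led the falls at 108 and 145 CPM in WT and 21.6 and 17.2 CPM in QKO (adjusted p = 0.000118). Ptch1, the receptor and feedback target of Hedgehog signalling, stood at 140.0 and 161 CPM in WT and 43.3 and 39.2 CPM in QKO (-1.87 ± 0.13). Slc16a3, an exporter of lactate, stood at 188 and 181 CPM in WT and 47.9 and 56.8 CPM in QKO (-1.82 ± 0.14). Soat1, which esterifies cholesterol, fell by 1.87 ± 0.15, Chd7, a chromatin remodeller, by 1.52 ± 0.13, and Palm, a membrane protein of cell processes, by 1.90 ± 0.17. Sesn3, a stress-induced inhibitor of mTORC1, fell by 1.62 ± 0.15 and Map3k9, a kinase upstream of JNK, by 1.52 ± 0.13, all on the log2 scale. On the other side, Nanog, a core pluripotency factor, stood at 308 and 288 CPM in WT and 624 and 566 CPM in QKO (1.00 ± 0.10). Cenpm, a kinetochore protein, stood at 19.8 and 20.3 CPM in WT and 51.7 and 61.2 CPM in QKO (1.49 ± 0.13). Ubxn2a rose on the log2 scale by 1.49 ± 0.14 and Gm33027, a lincRNA, by 2.06 ± 0.20. Each of these 12 genes kept its call under every alternative tried.

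Some of the most abundant mRNAs changed. Measured as the change in mean CPM, the greatest falls included enzymes of glycolysis, glucose transporters and parts of the translation machinery. Pkm, the last enzyme of glycolysis, stood at 4220 and 4570 CPM in WT and 2883 and 3178 CPM in QKO, and Gapdh at 4505 and 4901 CPM in WT and 3535 and 3517 CPM in QKO. Eef2, the elongation factor that moves the ribosome, stood at 4093 and 4653 CPM in WT and 2983 and 3328 CPM in QKO. Slc2a3 and Slc2a1, glucose transporters, stood lower in both QKO libraries. Slc2a3 had 1496 and 1865 CPM in WT and 766 and 753 CPM in QKO and Slc2a1 had 862 and 988 CPM in WT and 366 and 444 CPM in QKO. Tpi1 fell by 1.5 ± 0.22, Pgk1 by 1.32 ± 0.17, Rpl23, a ribosomal protein, by 0.56 ± 0.10, and Fn1, fibronectin, by 0.88 ± 0.14, on the log2 scale. Trh, which encodes thyrotropin-releasing hormone, stood at 647 and 696 CPM in WT and 229.7 and 194 CPM in QKO (-1.66 ± 0.17) and lies in a low window of chromosome 6. The greatest rises included nucleolar and RNA-binding proteins and also translation initiation factors. Trim28, a corepressor of retroviral elements that overlaps Zbtb45 on the opposite strand, stood at 2015 and 1746 CPM in WT and 3334 and 3338 CPM in QKO (0.83 ± 0.11). G3bp1, an RNA-binding protein of stress granules, stood at 696 and 651 CPM in WT and 1144 and 1299 CPM in QKO (0.86 ± 0.10). Sparc, a secreted matrix protein, stood at 217 and 267 CPM in WT and 627 and 750.3 CPM in QKO (1.51 ± 0.14). Npm1 and Ncl, the main nucleolar proteins, rose on the log2 scale by 0.37 ± 0.11 and 0.35 ± 0.10, Hspd1, a mitochondrial chaperone, by 0.57 ± 0.11, Actb by 0.53 ± 0.10, and Pou5f1, the pluripotency factor Oct4, by 0.39 ± 0.12. Npm1 (0.078), Ncl (0.0687) and Pou5f1 (0.0814) were not called with library total as the only scaling, where the value in brackets is the adjusted p. Pou5f1 (0.0854) was not called without WT replicate 1. Pkm (0.0953), Gapdh (0.065), Eef2 (0.0606), Slc2a1 (0.0553), Npm1 (0.243), Ncl (0.198), Hspd1 (0.0524), Actb (0.0619) and Pou5f1 (0.173) were not called without WT replicate 2. Pkm (0.079), Npm1 (0.133), Ncl (0.141) and Pou5f1 (0.231) were not called without QKO replicate 1. Pkm (0.0505), Gapdh (0.0514), Npm1 (0.126), Ncl (0.0854), Actb (0.0644) and Pou5f1 (0.0543) were not called without QKO replicate 2. Npm1 (0.0538) and Pou5f1 (0.0606) were not called without QT7L1 replicate 1. Npm1 (0.0505) and Pou5f1 (0.0572) were not called without QT7L1 replicate 2.

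A small set of genes was close to off in 1 group. Genes with at most 3 counts in each library of 1 group and at least 0.5 CPM in each library of the other numbered 13 with signal in WT and 1 with signal in QKO. Ppp1r3g, a glycogen-targeting subunit of protein phosphatase 1, had 40 and 54 counts in WT and 1 and 3 in QKO. Klf17, a Krüppel-like factor of the early embryo, had 23 and 42 counts in WT and 2 and 1 in QKO. Cnr1, the cannabinoid receptor of neurons, had 21 and 32 counts in WT and 0 and 1 in QKO, and Meiob, a meiotic recombination protein, 31 and 37 counts and 1 and 0. The others with signal in WT were Hist2h3c2, Usp9y, Card14, Sox30, Fn3k, Hist1h2al, Selplg, Tbx19 and Gfra3. These transcripts were rare in WT as well, at 0.532 to 1.25 CPM. Gfra3 (0.0637) and Usp9y (0.0953) were not called without WT replicate 2, where the value in brackets is the adjusted p. Usp9y (0.0894) was not called without QKO replicate 1. Sox30 (0.0516), Gfra3 (0.106), Hist1h2al (0.067), Meiob (0.0784) and Usp9y (0.118) were not called without QKO replicate 2. The gene with signal in QKO, Gm5976, is annotated as a processed pseudogene and had 0 and 1 counts in WT and 35 and 54 in QKO.

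Gene lists for pathways and families were read against the shares over all tested genes, 11.7% higher and 14.7% lower. The counts cover the tested members of each list. Those shares depended on level: in the top quartile 22.8% of genes were called higher and 9.3% lower. In the second quartile from the bottom they were 7.3 and 22.3%. No list was compared with genes of like level, so the part of level in a list's share was not tested. Of 96 lists, 58 had more members called lower than higher, 30 had more called higher and 8 were even. The median log2 fold change was at least 0.3 in 3 lists and -0.3 or less in 30. In bulk RNA, fewer cells of a type and less RNA per cell cannot be told apart, which holds for every list.

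Genes for making proteins and copying DNA were more often higher in QKO than tested genes overall. In the top quartile by level 22.8% of all genes were called higher, and these lists were not matched for level. Of 24 tested genes of ribosome biogenesis 16 were called higher and 0 lower (median log2 fold change 0.40), with Nip7, a factor of large-subunit assembly, at 183 and 173 CPM in WT and 276 and 307 CPM in QKO. Ubtf, which drives transcription of ribosomal RNA, stood at 300.5 and 291 CPM in WT and 424 and 444 CPM in QKO. Bop1, a processing factor, stood at 181 and 150.0 CPM in WT and 259 and 278 CPM in QKO. All of these values in QKO lie above those in WT. Of 29 RNA polymerase subunits 11 rose and 0 fell, among them Polr2i (0.78 ± 0.12) and Polr1d (0.72 ± 0.13). Of 57 translation initiation factors 25 rose and 4 fell, and the lower ones included Eif4e3, a cap-binding protein, at 2.07 and 3.94 CPM in WT and 0.434 and 0.222 CPM in QKO (-3.21 ± 0.49). Eif2b4, a subunit of the exchange factor that recycles eIF2, rose by 0.93 ± 0.11. Mitochondrial ribosomal proteins rose in 30 of 81 and fell in 1, led by Mrps34 (0.84 ± 0.12). Proteasome subunits rose in 18 of 49 and fell in 1, as with Psmd7 (0.54 ± 0.10). Genes of DNA replication rose in 12 of 26 and fell in 0, among them the ligase Lig1 (0.54 ± 0.10). Genes of nucleotide synthesis rose in 10 of 26 and fell in 1, among them the pyrimidine enzyme Umps (0.76 ± 0.11) and thymidine kinase Tk1 (0.75 ± 0.12). Splicing factors rose in 19 of 55 and fell in 2, with Hnrnpm at 0.49 ± 0.09. The median log2 fold changes of these 8 lists lay between 0.21 and 0.40. Single libraries decided many of these calls. The members called higher were counted again leaving out WT 1, WT 2, QKO 1 or QKO 2 in turn. There were 14, 3, 8 and 3 for ribosome biogenesis and 7, 3, 5 and 3 for RNA polymerase. There were 21, 6, 15 and 7 for initiation factors and 18, 5, 11 and 7 for mitochondrial ribosomal proteins. There were 15, 3, 4 and 6 for the proteasome and 9, 1, 9 and 2 for replication. There were 7, 3, 7 and 4 for nucleotide synthesis and 15, 1, 5 and 1 for splicing factors. With library total as the only scaling they were 11, 7, 17, 16, 12, 10, 7 and 11, against 0, 1, 7, 2, 1, 0, 1 and 2 called lower.

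Genes named as cytosolic ribosomal proteins did not follow those lists. Of 220 tested genes with names of this family 7 were called higher and 6 lower, with a median log2 fold change of 0.00. The list was drawn by name without regard to annotated type, so pseudogenes and other genes with such names may be in it. These counts therefore do not describe the functional ribosomal protein genes alone. Processed pseudogenes as a type held few calls, 4.0% higher and 1.0% lower of 1164. The low share of calls in this list thus cannot be read as a result about ribosomal proteins. The higher ones included Rpl10l and Rpl39l, variants of Rpl10 and Rpl39, at 24.7 and 28.4 CPM in WT and 91.4 and 83.7 CPM in QKO, and at 20.3 and 22.5 CPM in WT and 57.6 and 43.6 CPM in QKO. The lower ones included Rpl23 at 1383 and 1571 CPM in WT and 1066 and 937 CPM in QKO. Many copies of this family in the genome are nearly identical, so that reads may be split between them. Protocadherins (0 of 27 called), genes encoded in the mitochondrion (0 of 15), aminoacyl-tRNA synthetases (1 higher and 1 lower of 20) and cholesterol synthesis and uptake (1 higher and 0 lower of 24) also held few calls. Of 94 respiratory chain and ATP synthase subunits 12 were higher and 2 lower, and the tricarboxylic acid cycle held 3 higher and 3 lower of 25. With WT 1, WT 2, QKO 1 or QKO 2 left out in turn, other numbers were called higher. There were 5, 3, 3 and 3 for cytosolic ribosomal proteins and 6, 2, 2 and 4 for the respiratory chain.

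**Figure D3:**
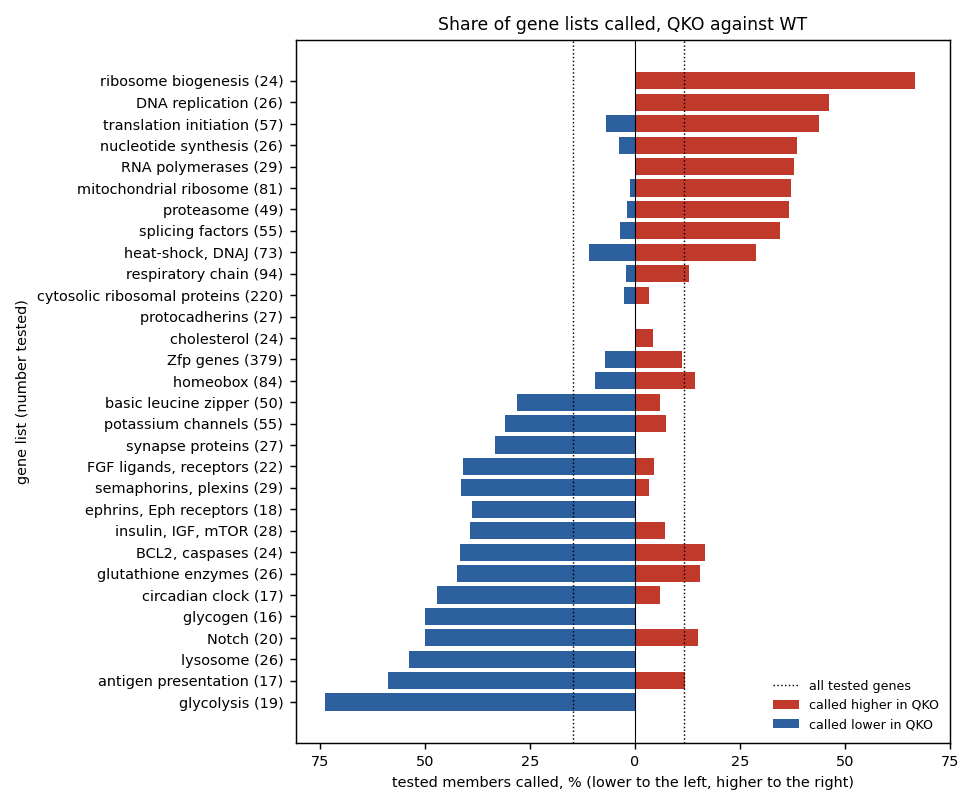
Share of the tested members called lower (bars to the left, %) or higher (bars to the right, %) in QKO for 30 gene lists (y, with the number tested), with dotted lines at the shares over all tested genes (14.7% lower and 11.7% higher). Ribosome biogenesis (16 of 24 higher) and glycolysis (14 of 19 lower) stand at the ends.

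Among the 96 lists, glycolysis had the largest share of calls. Of its 19 genes, 14 were called lower and 0 higher (median log2 fold change -0.66). Pfkfb3, which makes the activator of phosphofructokinase, stood at 36.2 and 33.9 CPM in WT and 15.1 and 17.9 CPM in QKO. Pfkl, a subunit of phosphofructokinase itself, stood at 562 and 682 CPM in WT and 265 and 297 CPM in QKO. Tpi1 stood at 758 and 912 CPM in WT and 266 and 324 CPM in QKO and Pgk1 at 834 and 907 CPM in WT and 332 and 364 CPM in QKO. In each of these 4 genes both QKO libraries lay below both WT libraries. Of 16 tested genes of glycogen metabolism 8 were called lower and 0 higher. Ppp1r3c, which brings phosphatase to glycogen, fell by 3.12 ± 0.40 and the phosphorylase Pygb by 1.00 ± 0.18. Lysosomal genes were called lower in 14 of 26 and higher in 0 (median -0.47), with the protease Ctsl at 169 and 198 CPM in WT and 92.7 and 99.3 CPM in QKO. The protease Ctsd stood at 318 and 353 CPM in WT and 203 and 188 CPM in QKO, the glycogen-degrading enzyme Gaa at -0.71 ± 0.10 and the receptor Scarb2 at -0.79 ± 0.12. Autophagy genes split, with 4 higher and 10 lower of 28: Gabarapl1 (-1.74 ± 0.21) and the cargo receptor Sqstm1 (-0.75 ± 0.10) fell and the lipid transfer protein Atg2a (0.99 ± 0.13) rose. Leaving out WT 1, WT 2, QKO 1 or QKO 2 in turn changed the numbers called lower. There were 12, 7, 9 and 7 for glycolysis and 8, 6, 7 and 4 for glycogen. There were 8, 6, 6 and 5 for the lysosome and 7, 5, 7 and 5 for autophagy. Members called higher were recounted with WT 1, WT 2, QKO 1 or QKO 2 left out, in that order. There were 3, 2, 2 and 2 for autophagy. None of the 19 glycolysis genes was called higher under either alternative scaling or without any 1 library of WT or QKO.

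Lists for glutathione enzymes, insulin signalling, cell death, the clock and antigen presentation each had more members called lower than higher. Glutathione transferases and peroxidases held 4 higher and 11 lower of 26 (median -0.71): Gstm1 fell by 1.12 ± 0.16 and the secreted peroxidase Gpx3 by 1.31 ± 0.21, while Gpx1 rose by 0.75 ± 0.12. Of 28 insulin, IGF and mTOR genes 2 rose and 11 fell, with Insr, the insulin receptor, at 21.4 and 28.9 CPM in WT and 10.6 and 9.26 CPM in QKO. Irs2, its adaptor, stood at 25 and 19.5 CPM in WT and 11.5 and 11.1 CPM in QKO. Both Insr and Irs2 lie in the low stretch of chromosome 8. BCL2 family and caspase genes held 4 higher and 10 lower of 24, with the death-promoting Bmf (-1.57 ± 0.26) and Pmaip1 (-1.09 ± 0.19) and the executioner Casp6 (-1.47 ± 0.22) among the falls. Circadian clock genes held 1 higher and 8 lower of 17, among them Bhlhe41 (-3.91 ± 0.56), Rora (-1.42 ± 0.24) and Tef (-0.93 ± 0.16). Antigen presentation held 2 higher and 10 lower of 17 (median -1.29). Tap1, a subunit of the peptide transporter, stood at 6.89 and 9.79 CPM in WT and 3.1 and 3.41 CPM in QKO, and its partner Tap2 at 3.16 and 3.13 CPM in WT and 0.434 and 0.249 CPM in QKO. H2-Ab1, a chain of MHC class II, stood at 1.66 and 2.18 CPM in WT and 0.248 and 0.111 CPM in QKO. Cd74 moved the other way, at 1.53 and 2.25 CPM in WT and 8.22 and 13.6 CPM in QKO. The members called lower were counted again leaving out WT 1, WT 2, QKO 1 or QKO 2 in turn. There were 10, 3, 4 and 2 for glutathione and 9, 6, 9 and 3 for insulin. There were 6, 5, 5 and 6 for the BCL2 and caspase list and 7, 5, 7 and 4 for the clock. There were 6, 8, 5 and 3 for antigen presentation. With WT 1, WT 2, QKO 1 or QKO 2 left out in turn, other numbers were called higher. There were 2, 3, 2 and 2 for glutathione and 1, 0, 1 and 0 for insulin. There were 0, 0, 0 and 0 for the BCL2 and caspase list and 2, 1, 1 and 1 for antigen presentation. With library total as the only scaling 1 BCL2 or caspase gene was called higher and 12 lower.

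Signalling and guidance genes of the cell surface fell in larger numbers than they rose. Notch pathway genes held 3 higher and 10 lower of 20, with the receptor Notch3 at 89.3 and 117 CPM in WT and 41.6 and 46.9 CPM in QKO. The ligand Jag2 stood at 50.9 and 54.8 CPM in WT and 15.3 and 11.7 CPM in QKO. FGF ligands and receptors held 1 higher and 9 lower of 22: Fgfr3 (-1.67 ± 0.25) and Fgfr1 (-0.60 ± 0.10) fell and the ligand Fgf17 (0.87 ± 0.13) rose. Fgfr1 is on the low stretch of chromosome 8. Hedgehog genes held 0 higher and 5 lower of 16, including the transducer Smo (-0.79 ± 0.14). Wnt ligands, receptors and secreted modulators held 5 higher and 12 lower of 36. Wnt5b, a ligand, stood at 1.28 and 0.998 CPM in WT and 4.34 and 5.32 CPM in QKO, and Fzd10, a receptor, at 23.4 and 22.2 CPM in WT and 53.7 and 48.1 CPM in QKO, both higher in QKO. The receptor Fzd7 stood at 93.9 and 97 CPM in WT and 53.4 and 54.4 CPM in QKO and the modulator Sfrp2 at 13.1 and 17.3 CPM in WT and 4.96 and 3.83 CPM in QKO. Semaphorins, plexins and neuropilins held 1 higher and 12 lower of 29, among them Sema6a (-3.52 ± 0.50) and Sema5a (-2.06 ± 0.35), and ephrins and their receptors 0 and 7 of 18, among them Efna1 (-2.19 ± 0.39) and Ephb3 (-0.83 ± 0.15). Leaving out WT 1, WT 2, QKO 1 or QKO 2 in turn changed the numbers called lower. There were 7, 2, 3 and 3 for Notch and 5, 8, 4 and 4 for FGF. There were 3, 3, 3 and 2 for Hedgehog and 10, 5, 7 and 4 for Wnt. There were 12, 4, 5 and 4 for semaphorins and 5, 4, 3 and 5 for ephrins. Members called higher were recounted with WT 1, WT 2, QKO 1 or QKO 2 left out, in that order. There were 2, 1, 1 and 0 for Notch and 3, 3, 3 and 3 for Wnt.

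Lists of genes known from neurons and from the cell's motors held more calls lower than higher. Kinesins, with 8.3% higher and 22.2% lower, lay near the shares of the second quartile by level, 7.3 and 22.3%. Potassium channels held 4 higher and 17 lower of 55 (median -0.85), with Kcnj3, an inward rectifier, at 9.23 and 4.62 CPM in WT and 1.05 and 1.27 CPM in QKO (it overlaps Gm26794 on the opposite strand, also called lower). Kcnk1, a leak channel, stood at 12.9 and 12.6 CPM in WT and 4.07 and 5.1 CPM in QKO. Hcn2, a pacemaker channel, stood at 12.7 and 15.1 CPM in WT and 6.83 and 5.46 CPM in QKO. Calcium and sodium channels held 3 higher and 11 lower of 39, with Itpr1, the calcium release channel of the endoplasmic reticulum, at -0.89 ± 0.15. Glutamate, GABA and glycine receptors held 2 higher and 7 lower of 19, and synapse proteins 0 higher and 9 lower of 27, with Nlgn2, an adhesion protein of inhibitory synapses, at -1.11 ± 0.19 and Syt11 at -0.87 ± 0.15. Kinesins held 3 higher and 8 lower of 36, with Kif21a (-1.75 ± 0.23) and Kif3c (-1.46 ± 0.21) beside Kif1a. Myosins held 5 higher and 13 lower of 40, with Myo6 at -2.03 ± 0.25 and Myo1f at 1.26 ± 0.19. Of 12 tested neuronal markers 1 was higher (Gap43, 1.41 ± 0.36) and 2 lower (Map2, -1.01 ± 0.25, and Syp, -1.05 ± 0.28), and their summed level was 412.8 and 413.8 CPM in WT and 509.8 and 461.6 CPM in QKO. Map2 (0.0661) and Syp (0.123) were not called without WT replicate 1, where the value in brackets is the adjusted p. Gap43 (0.101) and Map2 (0.0619) were not called without WT replicate 2. Gap43 (0.0859), Map2 (0.11) and Syp (0.0924) were not called without QKO replicate 1. Gap43 (0.137) and Syp (0.108) were not called without QKO replicate 2. Gap43 (0.0507) was not called without QT7L1 replicate 1. The members called lower were counted again leaving out WT 1, WT 2, QKO 1 or QKO 2 in turn. There were 16, 6, 13 and 5 for potassium channels and 13, 2, 6 and 3 for calcium and sodium channels. There were 2, 3, 1 and 2 for receptors and 3, 3, 2 and 2 for synapse proteins. There were 7, 4, 5 and 4 for kinesins and 14, 5, 7 and 5 for myosins. With WT 1, WT 2, QKO 1 or QKO 2 left out in turn, other numbers were called higher. There were 3, 0, 1 and 0 for potassium channels and 2, 0, 2 and 2 for calcium and sodium channels. There were 1, 0, 1 and 1 for receptors and 0, 0, 0 and 0 for kinesins. There were 5, 3, 5 and 2 for myosins.

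Transcription factors moved in both directions, with different counts in different families. Over 795 tested genes of the transcription factor lists, 89 (11.2%) were higher and 92 (11.6%) lower. Genes named Zfp held 42 higher and 27 lower of 379, which turned to 30 higher and 33 lower with library total as the only scaling. Homeobox genes outside the Hox clusters held 12 higher and 8 lower of 84, and 10 and 11 under that scaling. Basic leucine zipper factors held 3 higher and 14 lower of 50, with Bach1, a repressor of the oxidative stress response, at 35.2 and 43.4 CPM in WT and 19.6 and 17.7 CPM in QKO. Nfe2l2, the activator NRF2, stood at 103 and 115 CPM in WT and 74.1 and 69.9 CPM in QKO. Klf and Sp factors held 1 higher and 7 lower of 24, with Klf6 at -0.82 ± 0.15 and Sp6 at -1.77 ± 0.24 lower and Klf8 at 0.91 ± 0.14 higher. Among single factors, Mlxipl, the carbohydrate-responsive factor ChREBP, stood at 6.42 and 7.84 CPM in WT and 1.8 and 2.16 CPM in QKO. Maff, a small Maf protein, stood at 11.5 and 11.9 CPM in WT and 4.44 and 4.74 CPM in QKO. Stat5b fell by 1.32 ± 0.23 and Zfp362 by 1.81 ± 0.30. Foxd3, a regulator of the pluripotent epiblast, stood at 22.4 and 11.6 CPM in WT and 62.6 and 57.6 CPM in QKO. Pou2f3, a POU factor, stood at 8.8 and 10.5 CPM in WT and 29.9 and 39.6 CPM in QKO. Tbx3, a factor of naive pluripotency, stood at 92.6 and 97.1 CPM in WT and 222 and 169 CPM in QKO. Nr5a2 rose by 0.97 ± 0.13. Zfp600, Zfp978, Zfp980 and Zfp989 also rose by the test, at 2.13 ± 0.53, 1.64 ± 0.46, 1.49 ± 0.33 and 1.52 ± 0.36, but these genes of chromosome 4 are related copies between which reads may be split. Zfp978 (0.0547) was not called with library total as the only scaling, where the value in brackets is the adjusted p. Zfp600 (0.107) and Zfp978 (0.128) were not called without WT replicate 1. Zfp600 (0.199), Zfp978 (0.245), Zfp980 (0.108) and Zfp989 (0.108) were not called without WT replicate 2. Zfp600 (0.0929), Zfp978 (0.117) and Zfp989 (0.0553) were not called without QKO replicate 1. Zfp600 (0.125), Zfp978 (0.177), Zfp980 (0.0906) and Zfp989 (0.0714) were not called without QKO replicate 2. Leaving out WT 1, WT 2, QKO 1 or QKO 2 in turn changed the numbers called higher. There were 39, 2, 15 and 7 for Zfp genes and 8, 4, 5 and 2 for homeobox genes. There were 2, 0, 1 and 0 for leucine zippers and 1, 1, 1 and 1 for Klf and Sp. Members called lower were recounted with WT 1, WT 2, QKO 1 or QKO 2 left out, in that order. There were 16, 5, 14 and 8 for Zfp genes and 3, 2, 1 and 2 for homeobox genes. There were 11, 6, 11 and 6 for leucine zippers and 6, 4, 5 and 4 for Klf and Sp.

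Beta-catenin partners and corepressors, the proteins with which TCF/LEF factors act, held 3 higher and 1 lower of 25 tested, and 2 and 2 with library total as the only scaling. The members called higher were counted again leaving out WT 1, WT 2, QKO 1 or QKO 2 in turn. There were 1, 0, 1 and 2 for this list. Axin2, the feedback inhibitor of the pathway and a standard target of beta-catenin, stood at 21.9 and 20.7 CPM in WT and 45.5 and 60.3 CPM in QKO (1.31 ± 0.24, adjusted p = 0.00617), higher in both QKO libraries. Axin2 (0.0623) was not called without WT replicate 2, where the value in brackets is the adjusted p.

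Along the chromosomes, the first 70 Mb of chromosome 8 stood apart, a pattern looked for after the values had been seen. Over windows of 10 Mb with at least 20 genes of average log2 CPM of 2 or more, the median log2 fold change of a window had a 5th percentile of -0.15 and a 95th percentile of 0.18. Of 197 windows 7 had a median of -0.2 or less, and 6 of these 7 lay on chromosome 8 between its start and 70 Mb, at -0.41 to -0.23. These 6 were all the windows there with enough genes. The remaining window lay on chromosome 6 (90000001 to 100000000, median -0.30) and holds Trh. Over the genes at this level on the whole of chromosome 6, the median log2 difference from the WT mean was -0.057 and 0.057 in WT. It was lower in all 6 others, at -0.06 and -0.071 for QKO, where the first value lay barely under that of WT replicate 1. The QT7 libraries stood at -0.128 and -0.142 and the QT7L1 libraries at -0.123 and -0.132. In that stretch of chromosome 8, 155 of 196 genes at this level had a fold change under 0 and 70 were called lower against 2 higher. On the rest of the chromosome 52 of 412 were called lower and 98 higher. The median log2 difference from the WT mean was -0.27 and -0.34 in the QKO libraries, and it was -0.21 and -0.27 in QT7 and -0.24 and -0.22 in QT7L1, so that all 6 libraries of edited lines lay below both WT libraries (-0.03 and 0.03). Without its genes, 4266 genes were called, 1927 higher and 2339 lower. What sets this stretch apart was not tested.

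**Figure D4:**
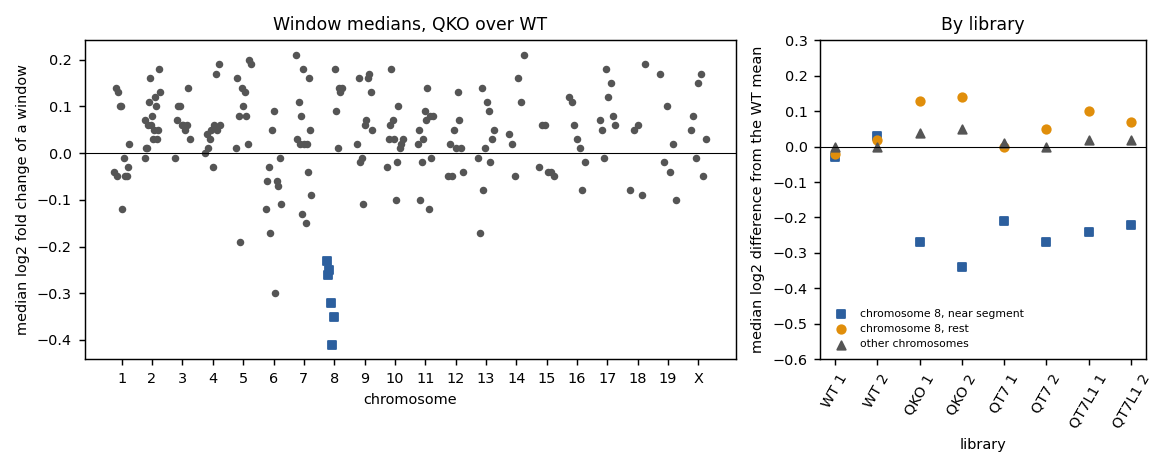
Left, median log2 fold change of QKO over WT (y) in each window of 10 Mb, by chromosome (x), with the windows in the first 70 Mb of chromosome 8 as squares; right, median log2 difference from the WT mean (y) in each library (x) for those genes (near segment), the rest of chromosome 8 and the other chromosomes. The near segment lies at -0.34 to -0.21 in the 6 libraries of edited lines.

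The longest run of neighbouring tested genes called in 1 direction was in the same stretch: 8 genes between 45507788 and 46211284 were all lower, namely Sorbs2, Pdlim3, 1700029J07Rik, Ufsp2, Ankrd37, Snx25, Cfap97 and Slc25a4, at log2 fold changes of -2.52 to -0.41. Ankrd37, known for induction by low oxygen, stood at 10.1 and 16.1 CPM in WT and 3.54 and 2.83 CPM in QKO and its neighbour Snx25 at 13.3 and 19.2 CPM in WT and 3.2 and 2.5 CPM in QKO. Ankrd37 and Ufsp2, and Snx25 and Cfap97, overlap at their ends, where reads may be shared. The next longest run held 7 higher genes on chromosome 12 between 87443896 and 88287069. Slirp and Snw1 overlap each other, and Gm8300, Gm2016, Gm8332, Gm5662 and Gm7104 are predicted genes that may be copies of each other, so that their reads are uncertain. A run of 5 was found on chromosome 19 between 8880014 and 8916672 (Uqcc3, Lbhd1, 1810009A15Rik, Ints5 and Ganab, higher). The runs depended on single libraries. With WT 1, WT 2, QKO 1 or QKO 2 left out in turn, the genes still called in the direction of the run were 5, 2, 2 and 2 of 8 on chromosome 8. They were 4, 5, 3 and 5 of 7 on chromosome 12. They were 4, 1, 2 and 1 of 5 on chromosome 19. With DESeq2's test 5 of 8, 6 of 7 and 5 of 5 genes of these runs were called, and with at least 1 CPM in 2 libraries 6 of 8, 6 of 7 and 5 of 5.

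Between the QKO libraries, 20 genes were at least 4-fold apart with 5 CPM or more in the higher library, of which 18 were higher in replicate 1 and 0 were called between QKO and WT. Col1a1, a chain of the main fibrillar collagen, stood at 38.6 and 18.2 CPM in WT and 51 and 5.82 CPM in QKO. Bgn, a small matrix proteoglycan, stood at 18.4 and 7.78 CPM in WT and 35.4 and 5.13 CPM in QKO. Acta2, smooth muscle actin, stood at 15.2 and 6.21 CPM in WT and 28.4 and 4.13 CPM in QKO. In each of these genes replicate 1 was the higher in WT too, and the WT libraries were at least 4-fold apart in 9 genes, all higher in replicate 1. Fibroblast markers summed to 135.2 and 86.4 CPM in WT and 174.1 and 51.6 CPM in QKO, and 1 of 10 tested (Thy1, at 7.98 and 11.5 CPM in WT and 20.4 and 19.2 CPM in QKO) was called. Their part in the results was not tested. In Col1a1, Bgn and Acta2 the groups overlap, so no difference between QKO and WT can be read from them.

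**Figure D5:**
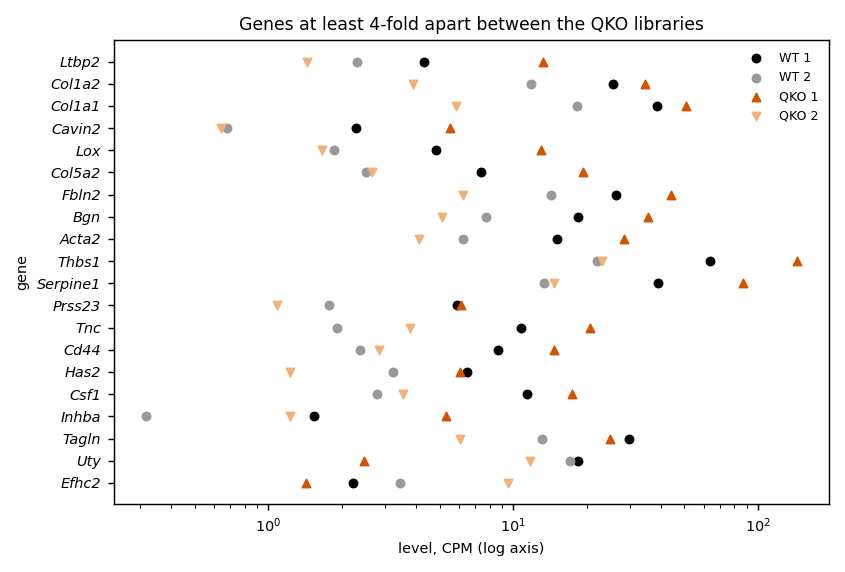
Level in CPM on a log axis (x) of the 20 genes (y) that differed at least 4-fold between the QKO libraries, with each of the 4 libraries as its own symbol. In most genes QKO 1 is the highest, WT 1 follows, and WT 2 and QKO 2 are low, as for Col1a1 (38.6 and 18.2 CPM in WT and 51 and 5.82 CPM in QKO).

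Markers of embryonic stem cells were abundant in both groups, as the label has it. Summed over 15 stem cell markers, the level was 7863.8 and 8031.8 CPM in WT and 9459.5 and 8567.2 CPM in QKO, with 5 markers called higher, among them Lin28a (0.57 ± 0.11) and Sall4 (0.47 ± 0.11), and 2 lower. With WT 1, WT 2, QKO 1 or QKO 2 left out in turn, other numbers were called higher. There were 3, 1, 2 and 3 for stem cell markers. Markers of other cell types summed to less. For endothelium and blood (0 of 8 called) the sum was 114.8 and 148.0 CPM in WT and 115.4 and 99.2 CPM in QKO. It was 55.5 and 75.1 against 53.5 and 52.3 CPM for muscle (2 of 10 called lower). For trophoblast it was 115.3 and 80.4 against 70.6 and 72.6 CPM (1 higher and 3 lower of 9). It was 477.6 and 885.4 against 876.1 and 1078.0 CPM for primitive endoderm, where 1 of 12 was called (Sparc, higher). Sparc made up much of this sum, at 217 and 267 CPM in WT and 627 and 750.3 CPM in QKO. The median log2 fold change of the 12 was -0.55, so the sum does not show a rise of the list. Epithelial markers were the exception: 6 of 9 were called lower and 0 higher, and the sum was 952.6 and 927.9 CPM in WT and 614.1 and 709.7 CPM in QKO. Epcam, an adhesion molecule that stem cells also carry, stood at 116 and 108 CPM in WT and 52.8 and 74.3 CPM in QKO, and E-cadherin (Cdh1) at 571 and 624 CPM in WT and 448 and 498 CPM in QKO. Of 21 claudins, connexins and occludin, 6 were called lower, 1 higher (Gjc1, 0.68 ± 0.09) and 14 neither. Cldn4 stood at 49 and 65.1 CPM in WT and 19.1 and 23.1 CPM in QKO. Cldn7 stood at 6.57 and 4.47 CPM in WT and 0.714 and 1.11 CPM in QKO, and Tjp3, a scaffold of tight junctions, at 19.6 and 21.9 CPM in WT and 7.08 and 6.74 CPM in QKO. Cdh1 (0.172), Lin28a (0.0577) and Sall4 (0.097) were not called without WT replicate 2, where the value in brackets is the adjusted p. Epcam (0.05001), Cdh1 (0.141) and Sall4 (0.0747) were not called without QKO replicate 1. Cdh1 (0.0566) and Lin28a (0.0595) were not called without QKO replicate 2. Leaving out WT 1, WT 2, QKO 1 or QKO 2 in turn changed the numbers called lower. There were 4, 2, 1 and 3 for epithelial markers.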

How the data were processed

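Raw counts per gene, as deposited, were used for the 8 libraries of the series. Per the labels' protocols, 250 ng of total RNA entered library preparation with a stranded mRNA kit. Per the submitters' processing notes, bcl2fastq 1.8.4, STAR 2.4.0f1, HTSeq and DESeq2 2.1.8.3 were used with mm10 (GRCm38); no source used here gives the counting mode or its strand setting, so genes that overlap (42 of 216 named genes overlap a tested gene) share an uncertainty. The authors' counts were fitted here with edgeR 4.0.16 in R 4.3.3: default filter on low counts, TMM scaling, a quasi-likelihood F test on 4 groups of 2 libraries (4 residual degrees of freedom) and Benjamini-Hochberg adjustment over 16515 genes at a threshold of 0.05. Each SE was obtained from the log2 fold change and its F value. DESeq2 1.42.0, other scalings, filters, a replicate block and left-out libraries were tried as alternatives. The script was tested on simulated counts. Named genes are those with the largest fold (25 in each direction, among called genes whose average log2 CPM was at least 2, with no overlap of the WT and QKO libraries and no predicted or clone name), the smallest adjusted p (10), the largest change in level (15), on in 1 group, up to 4 in each list, and in the 4 longest runs; not every one is described, and some items are not reported here. Members and lists were chosen with earlier results of these data known. The windows along the chromosomes, and leaving out the first 70 Mb of chromosome 8, were chosen after the data had been seen. Of 47729 identifiers, 47310 had a symbol. Promoters are from RefSeq (GRCm38.p6), and 11207 tested protein-coding genes outside chromosome 18 matched one.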

Additional observations from a re-analysis of the deposited data

How the results depend on the processing

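The number of genes called was 4408 with DESeq2's size factors, 4204 with library total as the only scaling, 5262 without a filter on low counts (25911 genes), 4114 with at least 1 CPM in 2 libraries (13756 genes), 4424 with DESeq2's test and 5200 with the WT and QKO libraries alone, against 4366 as reported. The deviations of same-numbered WT and QKO libraries from their group means correlated at -0.029 over all tested genes. That value cannot show whether some genes follow the replicate number, and Col1a1, Bgn and Acta2 were higher in replicate 1 of both groups. With the replicate block 4303 genes were called, 1872 higher and 2431 lower. The block ended the calls of Zfp600 (adjusted p = 0.0628) and Zfp978 (0.102) among the genes named. Leaving out 1 of the 8 libraries gave 1310 to 5493 genes called, 458 to 2494 higher and 841 to 3027 lower, with 181 to 536 at least 2-fold higher and 592 to 1497 at least 2-fold lower. Of the 4366 calls, 1258 were also called without WT replicate 2, 1301 without QKO replicate 2, 2094 without QKO replicate 1 and 2839 without WT replicate 1. The cause of these falls in number was not tested; leaving out a library leaves 1 in its group. Of 212 called genes named and followed through these alternatives, 0 turned direction. Many of them were chosen because their WT and QKO libraries do not overlap. Leaving out a library can then hardly turn the direction, so this count was largely set by the choice of genes. Calls in the lowest quartile of level rest on large standard errors (median 0.51 on the log2 scale), so small changes there were not detectable at this depth.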

Other observations

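Further groups held calls in both directions, except the ATF4 list, which held only falls. Heat-shock proteins and DNAJ cochaperones held 21 higher and 8 lower of 73, with Dnaja1, a cochaperone of HSP70, at 234 and 179 CPM in WT and 358 and 339 CPM in QKO and Hspb1, a small heat-shock protein, at 377 and 402 CPM in WT and 649 and 660.2 CPM in QKO. Core and linker histone genes held 2 higher and 11 lower of 44, with Hist3h2ba at -2.96 ± 0.48. Most histone mRNAs carry no poly(A) tail, and the labels name an mRNA kit, so these counts may cover only part of them. Interferon-stimulated genes held 4 higher and 3 lower of 16, with Oas1a, a sensor of double-stranded RNA, at 1.67 ± 0.26. Genes of the ATF4 response to amino acid stress held 0 higher and 5 lower of 17, with Ddit3 at 13.7 and 15.9 CPM in WT and 7.57 and 6.51 CPM in QKO. Members called higher were recounted with WT 1, WT 2, QKO 1 or QKO 2 left out, in that order. There were 12, 2, 8 and 10 for heat-shock genes and 1, 0, 1 and 1 for histones. There were 2, 3, 3 and 1 for interferon-stimulated genes and 0, 0, 0 and 1 for ATF4 genes. The members called lower were counted again leaving out WT 1, WT 2, QKO 1 or QKO 2 in turn. There were 6, 2, 4 and 2 for heat-shock genes and 9, 4, 9 and 4 for histones. There were 3, 0, 1 and 2 for interferon-stimulated genes and 4, 4, 8 and 4 for ATF4 genes.

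A gene of the Y chromosome differed between the QKO libraries. Uty, chosen after its values were seen, stood at 18.3 and 17 CPM in WT and 2.45 and 11.7 CPM in QKO, and the library labelled QKO replicate 1 was the lowest of the 4. Usp9y had 27 and 48 counts in WT and 3 and 3 in QKO and was called lower. It had 27 and 4 counts in QT7 and 1 and 0 in QT7L1, so its low counts were not particular to QKO. The cause was not tested.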
